A study of Caenorhabditis elegans with 4 samples.

Results

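Chromosome II of Caenorhabditis elegans carried 414 COH-1 peaks in the list of replicate 1 and 356 in that of replicate 2, out of 2964 and 2302 peaks on all 6 nuclear chromosomes. These 770 peaks were all the entries for chromosome II in both deposited lists, taken by position alone and without a threshold on their strength. They came from ChIP-seq (sequencing of DNA recovered with a protein by immunoprecipitation) with polyclonal rabbit serum raised on a fragment of COH-1. The study comprised 2 ChIP libraries and 2 input libraries, all from hermaphrodites of genotype fem-2(b245)III kept at 20 °C, so no group with another genotype stands beside them. The worms are labelled as young adults with a germline, while the growth protocol describes gravid adults from large synchronized cultures. Whole worms were ground, so a peak pools all tissues, germline included. The input libraries were not analysed here, so the peaks have no matching background beside them.

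COH-1 belongs to the kleisins, which clasp the ring formed by the other cohesin subunits shut around DNA. Cohesin holds sister chromatids together and also folds chromatin into loops, and worms have several kleisins, among them SCC-1 in mitosis and REC-8, COH-3 and COH-4 in meiosis. Worm chromosomes are holocentric, with spindle attachment along their length, and each autosome has a gene-dense centre with little recombination between arms that are richer in repeats, recombine more and tend to lie at the nuclear periphery. Scores are those the authors' peak caller attached to each peak, on a scale the files do not name, and they are compared by rank or within a list only. They began at 50.08 and 51.04 on chromosome II, and 22 peaks of replicate 2 were tied at 3100. The lists hold no read counts, so the depth behind a peak is unknown. With 1 group of 2 lists no test over samples was possible: differences are given as values of each list, as mean ± SD (n = 2), and with exact 95% binomial intervals for shares, which treat peaks as independent and cover counting error only. Nothing in the labels says whether the replicates came from separate cultures, so their spread may be technical.

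The peaks were spread very unevenly along chromosome II, with a sparse left arm, a dense centre and a right arm between them. The chromosome was taken from base 1 to the end of the last peak at 15277128 (build WS220) and cut into 3 equal parts by length: the left arm to 5092376, the centre to 10184752 and the right arm beyond. These parts are cuts by length alone and need not match the gene-dense centre and the arms described above. Replicate 1 had 45 peaks in the left arm, 240 in the centre and 129 in the right arm. Replicate 2 had 56, 189 and 111 in the same order. The order of the parts was the same in both lists, and no part overlapped another in peak number. The centre thus held 57.97% of the replicate 1 peaks (exact interval 53.1% to 62.8%) and 53.1% of the replicate 2 peaks (47.8% to 58.4%), against the 33.3% of an even spread, with a mean of 55.5% ± 3.45 (SD, n = 2). Per Mb, the left arm averaged 9.92 ± 1.53 peaks, the centre 42.1 ± 7.08 and the right arm 23.6 ± 2.499 (SD, n = 2 each).

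**Figure D1:**
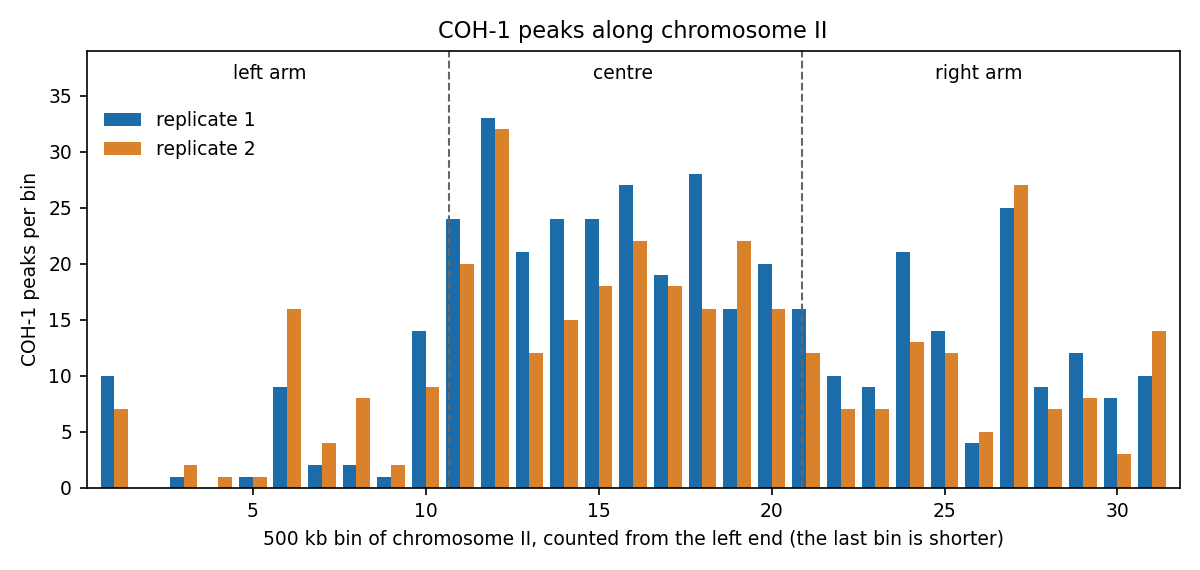
COH-1 peaks of chromosome II in bins of 500 kb (x axis, counted from the left end; y axis, peaks whose midpoint lies in the bin), with 1 bar for each list and dashed lines at the borders of the arms. Bins 2 to 5 and 7 to 9 hold at most 8 peaks of either list, bin 6 stands out between them, and every bin that lies mostly in the centre holds 16 to 33 peaks of replicate 1 and 12 to 32 of replicate 2.

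By the length that peaks covered, the contrast between the parts was wider still. In the left arm peaks covered 20.7 kb per Mb in replicate 1 and 20.1 kb per Mb in replicate 2. In the centre they covered 137.7 and 106.8 kb per Mb, and in the right arm 69.8 and 54.4 kb per Mb. The left arm was the part in which the lists differed least by covered length, although replicate 2 listed more peaks there and fewer in the other parts. Peaks of the left arm were also the narrowest, with median widths of 1363 bp and 1252.5 bp, against 1712.5 bp and 1850 bp in the centre and 1602 bp and 1569 bp in the right arm. Strong peaks were nevertheless present in every part. Of the strongest 25% of chromosome II peaks by score, 9 lay in the left arm in each list, 61 and 54 in the centre and 34 and 26 in the right arm. Expressed per part, 20.0% and 16.1% of left arm peaks belonged to the strongest 25%, against 25.4% and 28.6% of centre peaks and 26.4% and 23.4% of right arm peaks.

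**Figure D2:**
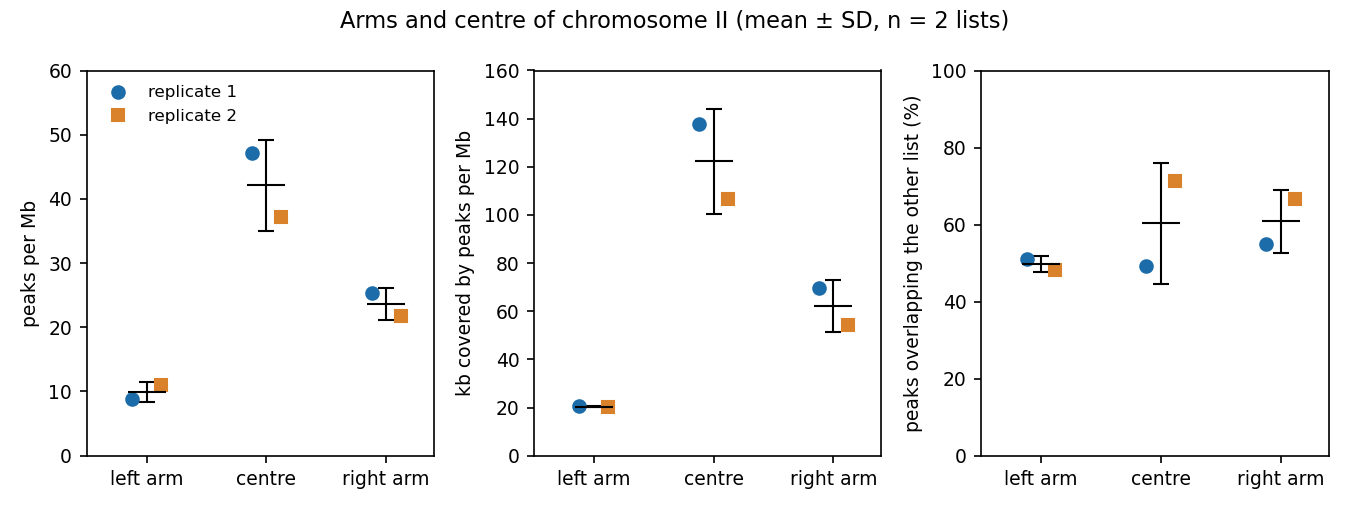
Peaks per Mb, kb covered by peaks per Mb, and the share of peaks that overlap the other list by at least 1 bp (y axes) in the left arm, centre and right arm of chromosome II (x axes). Points are the 2 lists, bars their mean ± SD (n = 2). The left arm lies below both other parts in the first 2 panels, while the shares in the last panel lie between 48.2% and 71.4%.

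Most of the left arm was made up of long stretches without a peak. Stretches of at least 200 kb with no peak in either list numbered 8 in the left arm, 0 in the centre and 3 in the right arm. They took up 3.32 Mb or 65.2% of the left arm, and 0.709 Mb or 13.9% of the right arm. The longest ran from 327412 to 1134241 (807 kb), followed by those from 1606355 to 2195300 (589 kb) and from 1153839 to 1605496 (452 kb). The next were those from 4095562 to 4489772 (394 kb), from 2455745 to 2798768 (343 kb) and, in the right arm, from 12518515 to 12796777 (278 kb). The last of the 8 longest were again in the left arm, from 2196264 to 2454375 (258 kb) and from 3059117 to 3303349 (244 kb). In the centre the longest stretch free of peaks was 181 kb. Taken alone, replicate 1 had 7 such stretches in the left arm, 0 in the centre and 3 in the right arm, and replicate 2 had 8, 2 and 8. The larger number in the left arm than in the right was thus not seen in replicate 2 alone, but by length the left arm led in each list, with 3.81 Mb against 1.02 Mb in replicate 1 and 3.83 Mb against 2.12 Mb in replicate 2.

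The first 5 of these stretches along the chromosome followed each other almost without a break. Over the 2.47 Mb from 327412 to 2798768, replicate 1 had 2 peaks and replicate 2 had 4, and only 1 site was in both lists. Their scores reached 274.25 in replicate 1, just inside the strongest 25% of that list on chromosome II, and 192.15 in replicate 2. Peaks were more frequent on both sides of this stretch, and most of all on its right. The first 327 kb of the chromosome held 10 peaks of replicate 1 and 7 of replicate 2 (30.5 and 21.4 peaks per Mb), up to scores of 1524.78 and 1052.51, and 6 peaks of each list were shared. In the 260 kb island from 2798769 to 3059116 replicate 1 had 10 peaks and replicate 2 had 19, which corresponds to 38.4 and 73.0 peaks per Mb. Strong peaks of both lists stood in that island: from 2969193 to 2975062 the scores were 976.01 in replicate 1 and 3100 in replicate 2. The neighbouring interval from 2975295 to 2980571 scored 651.77 and 3100. Of the island's peaks, 9 of the 10 listed by replicate 1 and 8 of the 19 listed by replicate 2 overlapped the other list. From the island to the border of the centre, over 2.03 Mb, there were 23 and 26 peaks. They included the second best ranked shared interval of the whole chromosome, from 4850806 to 4863480, with a score of 2680.67 in replicate 1 and 3100 in replicate 2. These 4 stretches were marked out after their values were seen.

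The centre was filled without such gaps. Each of the 10 bins of 500 kb that lay mostly in the centre held at least 10 peaks in both lists, which was true of 5 of 11 bins of the right arm and of 0 of 10 bins of the left arm. The fullest bin ran from 5500001 to 6000000, with 33 peaks of replicate 1, 32 of replicate 2 and 16 shared intervals. The bin from 500001 to 1000000 was the one without any peak. Over all 31 bins the counts of the lists were related with Spearman's rho = 0.89 and r = 0.88, and within the parts rho was 0.90 over the 10 bins of the left arm, 0.22 over the 10 of the centre and 0.86 over the 11 of the right arm. These values describe bins of the same 2 libraries, and neighbouring bins are not independent. By rank the lists thus ordered the bins of each arm alike, and those of the centre only weakly so. By r the contrast was smaller, with 0.74 in the left arm, 0.53 in the centre and 0.86 in the right arm. Replicate 1 had more peaks than replicate 2 in 9 of the 10 bins of the centre, but in 2 of 10 bins of the left arm, where replicate 2 had more in 6.

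The right arm alternated between filled and thin bins. Its fullest bin, from 13000001 to 13500000, held 25 peaks of replicate 1 and 27 of replicate 2 with 16 shared intervals, as many shared intervals as the fullest bin of the centre. The bin before it, from 12500001 to 13000000, held 4 and 5 peaks. The last bin, from 15000001 to the end, is only 277 kb long by this measure and held 10 and 14 peaks. The highest score of replicate 2 on chromosome II, 3233.06, belonged to the peak from 13067430 to 13073616 in this arm. Both peaks of replicate 1 that scored 3100 were also in the right arm, from 11625250 to 11641468 and from 14246291 to 14254382.

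Within each list, peaks stood close together. The median gap from a peak to the next was 4.20 kb in replicate 1 and 2.75 kb in replicate 2, while the upper quartile was 35.3 kb and 36.9 kb. In 52 cases in replicate 1 and 50 in replicate 2 the gap was under 200 bp, down to 1 bp and 6 bp, so that the caller had listed stretches that all but touch as separate peaks. These cases were 12.6% and 14.1% of all gaps. Peaks with no neighbour of their own list within 10 kb made up 37.8% of left arm peaks in replicate 1 and 17.9% in replicate 2. In the centre such lone peaks were 13.8% and 11.1%, and in the right arm 14.7% and 9.91%. The left arm had the highest share of lone peaks in both lists, but its shares also differed most between them.

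Of the chromosome II peaks, 212 of 414 in replicate 1 met a peak of replicate 2 over 1 bp or more, a share of 51.2% (exact interval 46.3% to 56.1%). From the side of replicate 2, 236 of 356 did so, a share of 66.3% (61.1% to 71.2%). In replicate 2 the left arm was shared least, at 48.2% (34.7% to 61.97%), against 71.4% (64.4% to 77.8%) in the centre and 66.7% (57.1% to 75.3%) in the right arm. In replicate 1 the parts were close to each other, at 51.1%, 49.2% and 55.04% from left to right. A lower share in the left arm was therefore seen in 1 list only. Within replicate 2 it was present among stronger and weaker peaks alike: in the upper 50% by score 15 of 22 left arm peaks were shared, against 87 of 102 in the centre, and in the lower 50% 12 of 34 against 48 of 87. The exact intervals of these shares overlap, 45.1% to 86.1% and 76.9% to 91.5% in the upper 50%, and 19.7% to 53.5% and 44.1% to 65.9% in the lower 50%. Replicate 1 peaks covered 20.7 kb per Mb of the left arm, against 137.7 in the centre and 69.8 in the right arm. Replicate 2 peaks covered 20.1, 106.8 and 54.4 kb per Mb in the left arm, centre and right arm. A peak of either list thus had less to meet in the left arm, while the left arm share was below both other parts in replicate 2 only. The part of this coverage in the sharing was not tested.

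Sharing went with strength on chromosome II. In replicate 1, 84 of the 104 strongest peaks (the upper 25% by score) were shared, or 80.8% (71.9% to 87.8%), against 34 of the 103 weakest, or 33.0% (24.1% to 42.97%). In replicate 2 these shares were 92.1% (84.5% to 96.8%) and 43.8% (33.3% to 54.7%). Strong peaks were also wider, with median widths of 4537.5 bp and 4302 bp in the strongest 25%, against 1054 bp and 1013 bp in the weakest 25%. Across peaks, score and width were related with rho = 0.81 in replicate 1 (n = 414) and 0.86 in replicate 2 (n = 356), which describes peaks of 1 library each. A wide peak has more room to overlap another, and the part of width in the sharing was not tested. Of the peaks narrower than 5 kb, 166 of 362 in replicate 1 (45.9%) and 198 of 313 in replicate 2 (63.3%) overlapped a peak of the other list. With wider peaks left out of both lists, the shares were 40.1% and 47.6%. The central share had no common direction with strength: the strongest 25% had 58.7% and 60.7% of their peaks in the centre, and the weakest 25% had 64.1% and 52.8%.

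**Figure D3:**
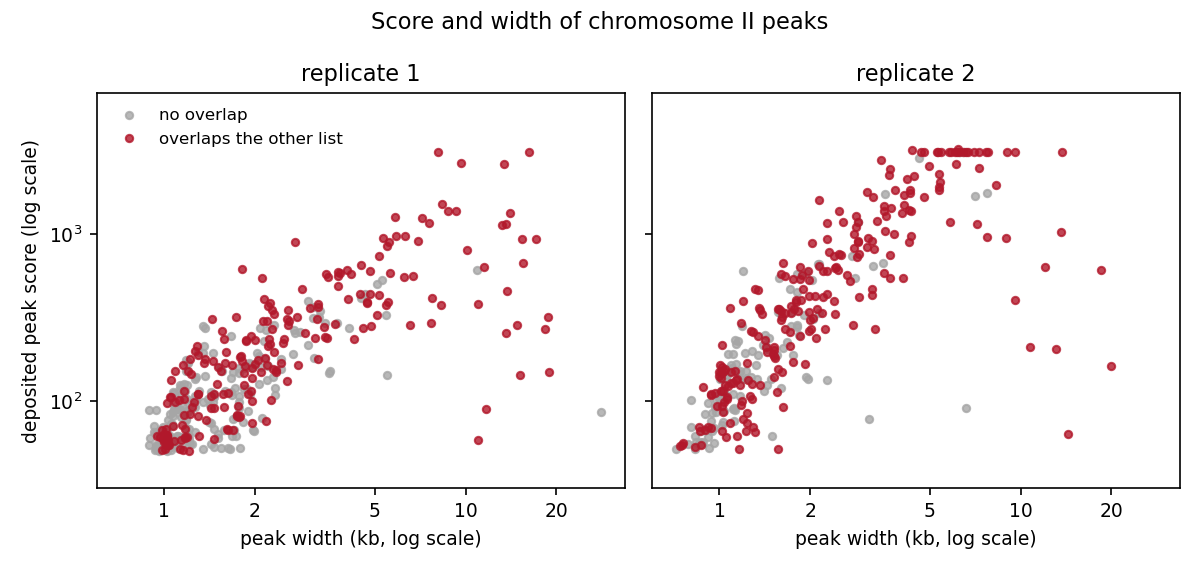
Deposited score (y axis, log scale) against width (x axis, kb, log scale) of each chromosome II peak in replicate 1 (left) and replicate 2 (right), coloured by whether the peak overlaps the other list. Score and width go together, the row of points at 3100 in replicate 2 are the tied peaks, and a few peaks of 10 kb or more lie far below the main cloud.

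A small set of very wide peaks left this relation. Peaks of 10 kb or more numbered 22 in replicate 1 and 8 in replicate 2, and 3 and 4 of them were in the lower 50% of their list by score. The widest peak of replicate 1 covered 28.1 kb from 10538256 to 10566346, scored only 85.34 and overlapped no peak of replicate 2. The widest peak of replicate 2, from 9593501 to 9613471, covered 20.0 kb with a score of 161.69, and it enclosed the replicate 1 peak from 9596397 to 9609792, which scored 2641.19. The same stretch was thus among the strongest of 1 list and in the lower part of the other.

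Linked by their overlaps, the shared peaks formed 173 intervals on chromosome II, 20 in the left arm, 95 in the centre and 58 in the right arm. These were 3.93, 18.7 and 11.4 intervals per Mb. Their median width was 2403 bp in the left arm, 3688 bp in the centre and 2429.5 bp in the right arm. In 121 intervals exactly 1 peak of each list met. The midpoints of those pairs lay a median of 395 bp apart and within 200 bp in 41 of them, and the median overlap was 1137 bp. The replicate 2 peak lay wholly inside the replicate 1 peak in 34 pairs, and the reverse held in 23. The remaining 52 intervals joined several peaks of at least 1 list. They had a median width of 9497 bp, against 2342 bp for the pairs, and made up 60.3% of the length of all shared intervals. More pieces came from replicate 2 in 27 intervals and from replicate 1 in 13, so the broad sites were more often divided in the list of replicate 2.

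The 10 intervals ranked best by both scores together on chromosome II lay in all 3 parts: 2 in the left arm, 4 in the centre and 4 in the right arm. They were 4.63 to 30.3 kb wide. The first, from 11611130 to 11641468 in the right arm, joined 2 peaks of replicate 1 and 3 of replicate 2 with a best score of 3100 in each. The second and the fourth were the left arm intervals from 4850806 to 4863480 and from 2969193 to 2975062 described above. The best of the centre was the third, from 6884473 to 6898125, where the lists scored 1387.13 (replicate 1) and 3100 (replicate 2). In the right arm, the interval from 11153494 to 11164462 had the scores 971.27 and 3100, and that from 11738969 to 11756946 had 951.35 and 3100. In the centre, the interval from 7386701 to 7391330 scored 613.26 and 3211.92. The right arm added that from 14050006 to 14056543, with scores of 898.5 and 3100. The last of the 10 were both in the centre, from 9498264 to 9506206 with scores of 896.38 and 3100, and from 5177061 to 5187653 with scores of 1168.01 and 2565.98. Ties at 3100 in replicate 2 left much of this order to replicate 1. Over all 173 intervals the scores of the lists were related with rho = 0.46, taking the best score where an interval held several peaks of a list, and over the 121 pairs of single peaks with rho = 0.29. By part, over all intervals, rho was 0.50 in the left arm (n = 20), 0.45 in the centre (n = 95) and 0.45 in the right arm (n = 58). These values describe intervals, which are not replicates.

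Dense blocks, in which peaks of both lists followed each other at gaps of 10 kb or less with at least 5 peaks of each list, numbered 12. They covered 0.391 Mb, or 2.56% of the chromosome, and held 82 peaks of replicate 1 (19.8%) and 86 of replicate 2 (24.2%). There were 2 in the left arm, 6 in the centre and 4 in the right arm. With the rule applied to a single list, 20 blocks were found in replicate 1 and 23 in replicate 2, and with the stronger 50% of both lists there were 4. The blocks with the most peaks were neighbours in the centre. The first, from 5858195 to 5908177, held 11 and 12 peaks over 49.98 kb, and the second, from 5924159 to 5967270, held 9 and 11 over 43.1 kb. Peaks covered 58.3% of the first in replicate 1 and 50.05% in replicate 2, each list taken alone. The block from 7612720 to 7649542 had 10 and 8 peaks that covered 83.6% and 51.5% of its 36.8 kb. In the right arm, the block from 11721785 to 11761806 had 6 and 9 peaks that covered 84.3% and 72.7% of its 40.02 kb. With a centre from 5 to 12 Mb, this block falls in the centre. The remaining blocks among the 8 with the most peaks held 12 or 13 peaks each and ran from 8068610 to 8099856 in the centre and from 12036313 to 12062276, from 13456153 to 13475009 and from 15187446 to 15213102 in the right arm. Both blocks of the left arm had 5 peaks of each list, from 313146 to 327411 just before the longest empty stretch and from 2965430 to 2995693 in the island.

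**Figure D4:**
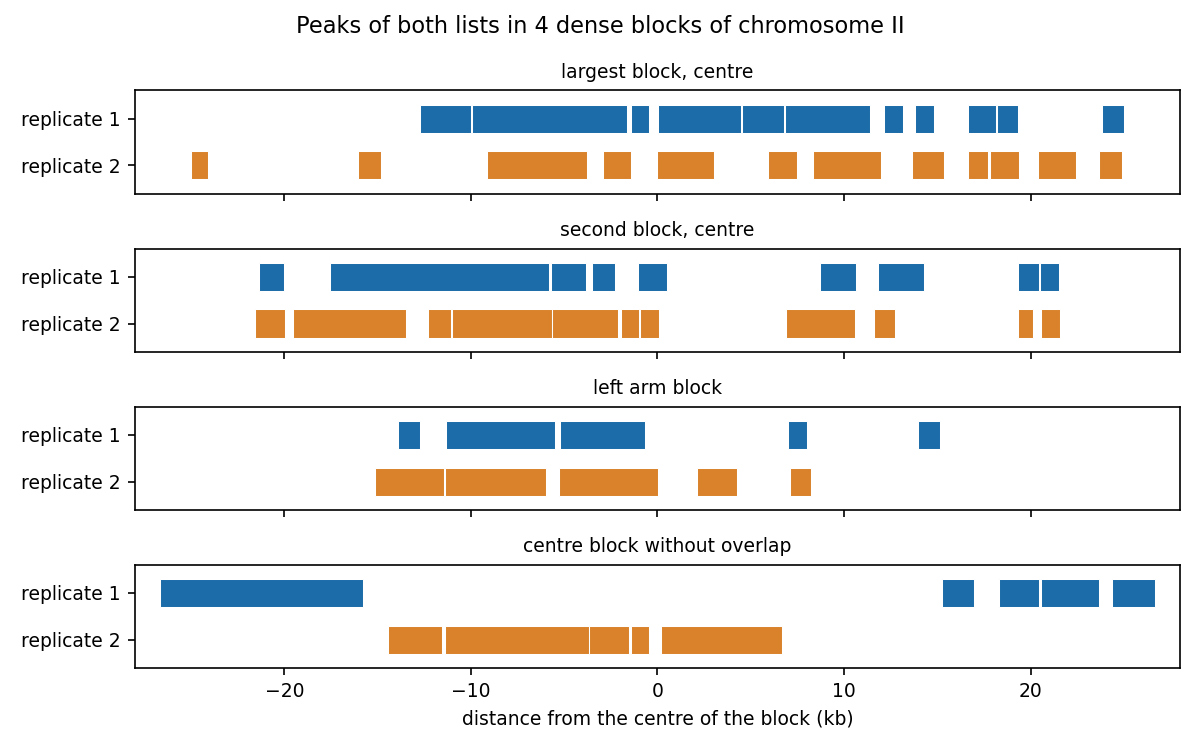
Peaks of replicate 1 (upper row of each panel) and replicate 2 (lower row) in 4 dense blocks, drawn to scale as distance from the centre of the block in kb (x axis). From top to bottom, the blocks hold 6, 7, 4 and 0 shared intervals, and in the lowest panel a run of replicate 2 peaks lies between replicate 1 peaks without touching them.

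In 1 dense block the lists shared no site at all. From 9257173 to 9310490 in the centre, each list had 5 peaks that covered 37.8% of the 53.3 kb, but none overlapped. A strong peak of replicate 1 from 9257173 to 9268062 (score 614) was followed by 5 adjoining peaks of replicate 2 from 9269381 to 9290496, with scores up to 3100, and then by 4 peaks of replicate 1 from 9299105 to 9310490, with scores up to 312.53. The strongest peaks without a partner came from the same neighbourhood. In replicate 2 they were those from 9284026 to 9290496 and from 9119520 to 9125822 (score 3100 each), from 9108845 to 9113438 (2873.62) and from 9272434 to 9280174 (1780.24), and only the fifth, from 3050883 to 3054424 (1750.4), lay elsewhere. In replicate 1 the first 2 were the peaks from 9257173 to 9268062 (614) and from 9070382 to 9075678 (529.03). They were followed by peaks from 6609194 to 6614275 (501.11), from 8640156 to 8644795 (440.48) and, in the right arm, from 13458425 to 13462931 (414.25). Between 9080881 and 9257172 replicate 1 had no peak over 176 kb, while replicate 2 had 7, of which 6 stood side by side from 9108845 to 9134077.

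Peaks without a partner otherwise were mostly weak and narrow, and many lay close to the other list. Their median score was 89.18 in replicate 1 (n = 202) and 135.82 in replicate 2 (n = 120), against 184.54 and 401.37 for the shared peaks. Their median distance to the nearest peak of the other list was 12.5 kb in replicate 1 and 4.08 kb in replicate 2. Within 10 kb of the other list lay 92 of the 202 in replicate 1 and 75 of the 120 in replicate 2, while 36 and 13 were more than 50 kb away.

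Over its whole length chromosome II was close to the other autosomes in peak density and sharing, while its peaks were divided unequally between its arms. It had 27.1 and 23.3 peaks per Mb in replicates 1 and 2, against 26.19 and 22.02 on the other autosomes together, a ratio of 1.05 ± 0.017 (SD, n = 2). The shares of peaks found in the other list, 51.2% and 66.3%, were also near those of the other autosomes, 51.96% (49.6% to 54.3%) and 69.2% (66.8% to 71.5%). Its left arm had the fewest peaks per Mb of all 12 chromosome arms in both lists, 8.84 and 10.997. The next lowest were the right arm of V in replicate 1, with 10.1, and the left arm of V in replicate 2, with 11.5, so the margin was small. Its centre had more peaks per Mb than any other autosomal centre in both lists, 47.1 and 37.1, with 43.5 and 32.6 as the next values, on I and V. On X the centre had 48.3 in replicate 1 and 23.0 in replicate 2. By the share of peaks that lay in the centre, however, V was above II in both lists. That share was 58.5% and 57.7% on V, against 57.97% and 53.1% on II. Empty stretches of at least 200 kb took up 26.4% of II, against 45.1% of V and 32.6% of IV. On I, III and X they took up 24.2%, 17.4% and 6.92%. The ratio of left to right arm was 0.35 and 0.50 on II, with a mean of 0.43 ± 0.11 (SD, n = 2). On III, the only other autosome with fewer peaks on the left in both lists, it was 0.71 and 0.74, and on I the imbalance ran the other way with 1.59 and 1.35. Chromosome II was therefore the most uneven between its arms in both lists, a description over 6 chromosomes for which no test was made.

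**Figure D5:**
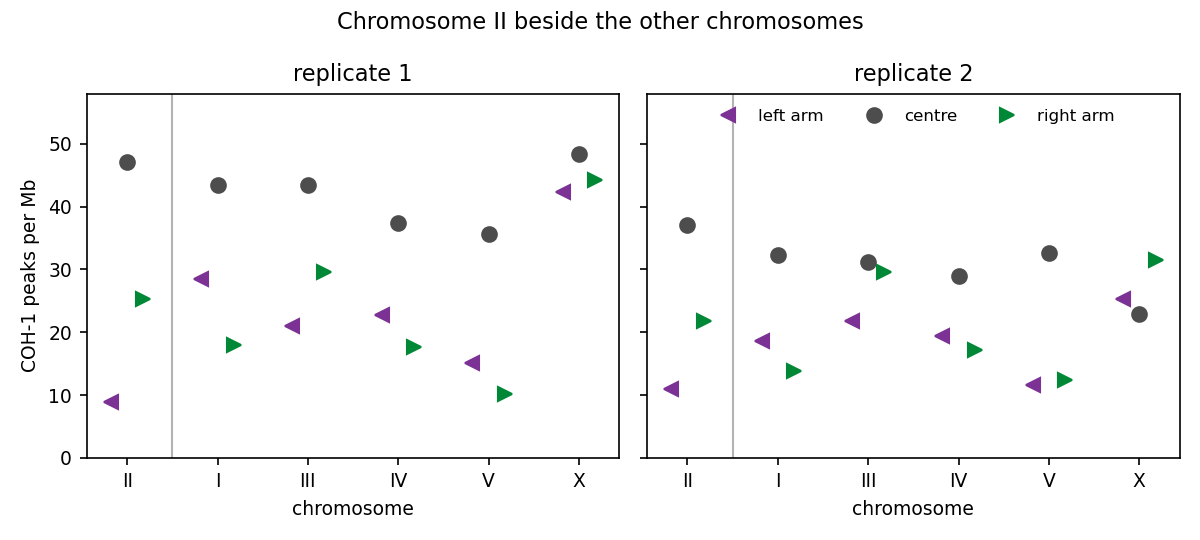
COH-1 peaks per Mb (y axis) in the left arm, centre and right arm of each chromosome (x axis) in replicate 1 (left panel) and replicate 2 (right panel). The left arm of II is the lowest point of both panels, and its right arm, at 25.3 and 21.8, is above the right arms of I, IV and V.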

How the data were processed

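The authors mapped reads to ce10 with BWA, as the submitters' processing notes list, and called peaks with MACS, per the file headers, which give WS220 as the build. Each ChIP library had its own list, without pooling. The versions, threshold, control and filters behind the lists are not stated in the labels or headers. The only measurement was the score deposited by the authors for each peak, whose scale is not named. Depth is unknown.

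Groups and replicate numbers came from the sample titles. Peaks were assigned to parts by midpoint, and overlaps, blocks and gaps were computed with numpy 2.4.6 and pandas 2.3.3 under Python 3.11.15, exact intervals with scipy 1.17.1, and figures with matplotlib 3.10.9. The functions were tested on simulated lists and returned the planted values in 20 of 20 runs. Those lists held well separated peaks with at most a single partner and an added block. Intervals that join several peaks of a list were not simulated. The named regions follow fixed rules: the 10 best ranked shared intervals and the best of each part, the 5 strongest unpartnered peaks per list, the 8 fullest blocks, the 8 longest empty stretches, and the fullest and emptiest bins. Other named stretches, the widest peaks and the single block without overlap were picked after their values were seen, and the members and rules were chosen with earlier results of these data known. The list names carry the tags BC299 (replicate 1) and csr1 (replicate 2), which the labels do not explain. No genome or gene annotation of WS220 was used, so peaks are given by position without genes or sequence. Alternatives varied the borders of the centre, the overlap rule, the peaks used, merging, block and gap sizes, and left out each list.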

Additional observations from a re-analysis of the deposited data

How the results depend on the processing

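No paired analysis was possible because the numbered input libraries came without peak lists. Over 8 results, 45 alternatives were run, of which 24 stayed within the spread between the lists, the counting interval or a factor of 1.5. The central share was 67.3% with the middle 50% of the length (even spread 50%), 67.6% with a centre from 5 to 12 Mb (even spread 45.8%) and 59.2% without the outermost 500 kb at each end (even spread 35.7%, added after seeing the data), and 53.1% to 57.97% with either list left out. The left to right ratio was 0.31 with the middle 50% as centre and 0.56 after merging peaks within 10 kb, and 0.35 to 0.50 with either list left out, below 1 under each setting run. The ratio of II to the other autosomes was 1.03 to 1.06 with either list left out. Under a reciprocal overlap of 50%, 28.3% of replicate 1 and 32.9% of replicate 2 peaks were shared, with midpoints within 500 bp 22.5% and 26.1%, with wider peaks than 5 kb left out of both lists 40.1% and 47.6%, and with the strongest peaks of replicate 1 kept so that both whole-genome lists were equally long (310 and 356 peaks on II, added after seeing the data) 57.1% and 58.7%. The 173 shared intervals became 87 with the stronger 50% of each list and 90 after merging within 10 kb. The 12 dense blocks became 21 with links of 20 kb, 4 with the stronger 50%, and 20 to 23 with 1 list alone (20 without replicate 2, 23 without replicate 1). The 11 empty stretches became 34 at a minimum of 100 kb (12 in the left arm, 6 in the centre, 16 in the right arm), and 10 to 18 with 1 list alone. Without replicate 1 there were 8 in the left arm, 2 in the centre and 8 in the right arm, and with the stronger 50% there were 4, 2 and 9, so the number in the left arm no longer exceeded that in the right. Their summed length in the left arm remained above that in the right arm under each of these settings (3.81 Mb against 2.30 Mb with the stronger 50%). Stricter overlap rules and fewer peaks tend to lower the counts of shared intervals and dense blocks by construction. Empty stretches behave otherwise, since fewer peaks leave longer gaps, and there were 15 with the stronger 50% of each list. The cause of the other shifts was not tested. Depth limits could not be set, since no reads were counted.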
